A study of Rattus norvegicus with 24 samples.

Results

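The 10 genes described here encode p53 and 9 products of the p53 and DNA damage response, measured in rat lung: Trp53, Cdkn1a, Mdm2, Ccng1, Bax, Trp53inp1, Gdf15, Sesn2, Gadd45a and Phlda3. They were taken by name from a table of 30667 genes, and all 10 were found. Earlier results of these data were known when they were chosen: the set was built around Cdkn1a, which was selected on its normalized read counts in letter G against letter A, having passed the threshold in a fit to those samples alone. The values of the 10 genes in G against A are therefore given as a description with no test.

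The study set out to follow the mechanism of lung cancer in a rat model in which smoky coal, a bituminous coal, was the inducing agent. RNA was sequenced from 24 lung samples, each titled with 1 of the letters A, B, C and G (6 samples per letter) and a number from 1 to 6 (4 samples per number, 1 from each letter). Every sample bears the same smoky coal label. The labels used here give no strain, age, sex, dose, time or control for any letter and no meaning for the numbers, so groups are called by letter and number only. Nothing in them says that samples of a letter came from separate animals, so the p-values measure the spread between samples, which may be partly technical.

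p53 is a transcription factor that is kept low by the ubiquitin ligase Mdm2 and released from it when DNA is damaged. It then switches on genes for cell cycle arrest, DNA repair, cell death and metabolic control, among them Mdm2 itself, which closes a feedback loop. In lung, the polycyclic aromatic hydrocarbons of coal smoke are turned into DNA-binding products, and DNA damage of this kind is a classical trigger of p53. p53 is regulated mostly as a protein, so its mRNA level is not a measure of its activity. Several of its targets also answer to other signals: Cdkn1a and Gadd45a to growth and hormone signals, and Gdf15 and Sesn2 to the ATF4 stress response.

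Promoter windows of 250 bases before the RefSeq start site were found in the rat promoter table (GRCr8) for 7 of the 10 genes, in 8 windows, since Gdf15 had 2. Trp53, Bax and Trp53inp1 had no entry. The windows were searched on both strands for the p53 decamer consensus, which is the repeated unit of p53 response elements, and for CCAAT, ATTTGCAT and TATAAA, and no matches overlapped each other. Windows of Cdkn1a, Gadd45a and Ccng1 held 1 decamer match each, and 6.64% of all 33469 windows held at least 1. They are printed below because Cdkn1a and Gadd45a are the pair with the highest correlation among the 10 genes, a call that was lost in some of the fits described later, and Ccng1 also holds a decamer but did not pass as moving with Cdkn1a. Capitals mark the decamer.
Cdkn1a, chr20:7150682-7150931, plus strand: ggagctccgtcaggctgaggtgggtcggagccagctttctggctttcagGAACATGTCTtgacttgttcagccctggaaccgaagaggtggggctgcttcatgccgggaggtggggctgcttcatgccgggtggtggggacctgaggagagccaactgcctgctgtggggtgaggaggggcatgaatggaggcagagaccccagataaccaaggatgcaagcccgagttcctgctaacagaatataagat
Gadd45a, chr4:97486800-97487049, minus strand: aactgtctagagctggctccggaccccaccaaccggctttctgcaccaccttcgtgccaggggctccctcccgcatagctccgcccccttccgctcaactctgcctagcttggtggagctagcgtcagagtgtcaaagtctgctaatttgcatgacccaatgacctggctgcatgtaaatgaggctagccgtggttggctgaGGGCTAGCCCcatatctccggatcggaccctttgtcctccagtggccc
Ccng1, chr10:25684877-25685126, minus strand: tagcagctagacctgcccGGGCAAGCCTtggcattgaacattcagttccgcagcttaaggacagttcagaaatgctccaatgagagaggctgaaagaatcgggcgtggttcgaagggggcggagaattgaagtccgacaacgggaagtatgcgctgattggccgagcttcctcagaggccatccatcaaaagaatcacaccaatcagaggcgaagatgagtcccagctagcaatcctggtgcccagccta
Counted from the start site, the decamer lay at -201 to -192 in Cdkn1a, -48 to -39 in Gadd45a and -232 to -223 in Ccng1. The Gadd45a window also held ATTTGCAT at -105 to -98, which 1.56% of all windows hold, and 1 CCAAT. That motif, present in 34.02% of all windows, occurred 3 times in Ccng1 and not in Cdkn1a. These are matches of letters in 1 window per start site, and binding was not measured.

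Values are normalized read counts per gene, and log2 values are of the count + 1. Their sum per sample ran from 61717516 to 66007148, a ratio of 1.07, and the depth before normalization is unknown. All 8 lung markers checked (Sftpc, Sftpb, Scgb1a1, Ager, Hopx, Foxj1, Cldn5 and Pecam1) were above 0 in all 24 samples. A4 stood apart in squamous markers, with a sum over 4 genes of 16341 against at most 934 in the other samples, and A4 and B4 in skeletal muscle markers (63623 and 15868, against at most 2710). Leaving out any 1 sample, A4 and B4 among them, left Cdkn1a, Ccng1, Bax, Gdf15, Gadd45a and Phlda3 on the same side of the threshold in the test across numbers. Levels are not compared between genes, since gene lengths were not used, and reads of a rat sample placed on a mouse genome, the only build the submitters' processing notes name, may be kept to a different extent for each gene. In bulk tissue, fewer cells of a type and less RNA per cell cannot be told apart.

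In brief, the 10 genes differed far more by sample number than by letter, with Cdkn1a as the exception. Across the 6 sample numbers, 7 of the 10 passed an adjusted p of 0.05 (limma F test with the letter in the model, adjusted over all genes), where 31.5% of all genes passed: Trp53, Cdkn1a, Ccng1, Bax, Gdf15, Gadd45a and Phlda3. Mdm2, Trp53inp1 and Sesn2 did not pass. Between letters, in a fit without the sample number, none of the 10 passed in any of the 6 pairs, where 0.00652% of all genes did in G against A and in G against C, 0.00326% in G against B and 0% in the other pairs. With the sample number as a block the calls changed: 391 genes passed in G against A and 11 in G against C. Cdkn1a was among both, but G against A singled it out, so its passing there carries no test. Numbers accounted for 33.4% to 69.1% of the variance of a gene on the log2 scale, against a median of 37.1% over all genes. Letters accounted for 2.08% to 13.3% in 9 of the genes and 53.2% in Cdkn1a, against a median of 9.45%. The share of Cdkn1a includes the G against A difference on which it was chosen, so it is a description and carries no test. The genes did not share a direction: different ones were high in different numbers.

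**Figure D1:**
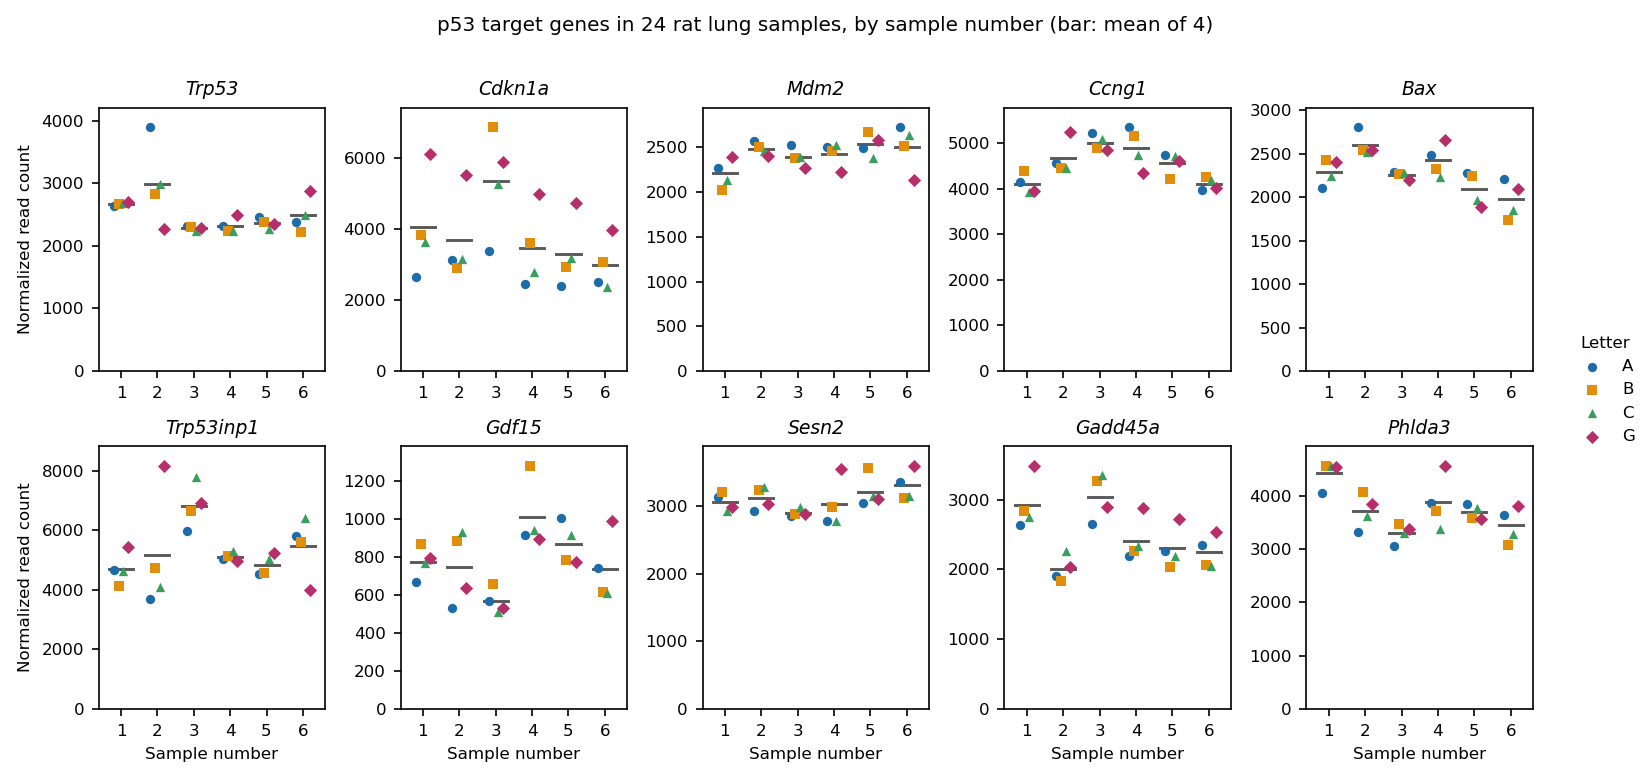
Normalized read counts (vertical axis, starting at 0) of the 10 genes in the 24 samples, by sample number (horizontal axis), with 1 point per sample coloured and shaped by letter and a bar for the mean of the 4 samples of a number. Cdkn1a was highest in number 3 in letters A, B and C and in G lay above the other letters in every number but 3, where B3 was higher.

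Trp53, the p53 gene itself, ranged from 2228 in B6 to 3897 in A2. In number 2 the samples A2, B2 and C2, at 3897, 2830 and 2991, were the highest of their letters, and G2, at 2276, was the lowest of its own. Number 1 was narrow, between 2642 and 2703, and number 3 lay between 2243 and 2319, with no overlap between these numbers. Number 2 was higher than the mean of the other 5 numbers by a log2 difference of 0.28 (SE 0.08, limma adjusted p = 0.0139). Higher values at that threshold were found for 11.5% of all genes in number 2. Across the 6 numbers the adjusted p was 0.0461, and Trp53 passed in only 3 of the 24 fits with a sample removed (without G2, G4 or G6; highest adjusted p 0.116). Without the 4 samples numbered 3 it was 0.105. Wrap53 overlaps Trp53 on the opposite strand, and the labels do not say whether counting used the strand. Reads from the overlap may therefore not have been told apart.

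Genes of dividing cells were higher in number 2 as well. Of 12 proliferation genes, 10 were higher in number 2 and 0 were lower, with a median log2 difference of 1.395 against 0.0050 over all genes. Top2a, a DNA topoisomerase of dividing cells, had 1039 to 4362 counts in number 2 and 359.8 to 1757 elsewhere, so that the values overlapped, and 2 of the 12 genes were also higher in number 1. T and NK cell markers were higher in number 2 in 4 of 4 genes, and their sum was highest in A2, at 7768. Red blood cell markers were lower there in 4 of 4 genes (median log2 difference -1.09) and lung markers in 5 of 8 (median -0.27). Of 5 neutrophil markers, 1 was higher in number 2, and their sum was also highest in A2, at 31891. The part of these cells in the Trp53 values was not tested.

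Mdm2, the ligase that degrades p53 and one of its classical targets, had the narrowest spread of the 10 genes, with a coefficient of variation of 7.24% over samples. It ranged from 2028 in B1 to 2725 in A6. In letters A, B and C the number 1 sample was the lowest, at 2276, 2028 and 2134, and in G number 1 had 2398, below G5 and G2. Number 1 was lower than the other numbers by a log2 difference of -0.16 (SE 0.05, limma adjusted p = 0.0482), as were 6.25% of all genes at that threshold. The test across all numbers did not pass (adjusted p = 0.174). It passed in 2 of the 24 fits with a sample removed (without G1 or G6, lowest limma adjusted p 0.0349). With sample weights it also passed (limma adjusted p = 0.0452). Letter means ran from 2338 ± 158 in G to 2517 ± 145 in A (SD, n = 6), and the values of all 4 letters overlapped.

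Cdkn1a encodes p21, the inhibitor of cyclin-dependent kinases through which p53 arrests the cell cycle. In letter A it had 2648, 3139, 3394, 2447, 2393 and 2516 counts in numbers 1 to 6. In B it had 3830, 2908, 6874, 3610, 2928 and 3073, and in C 3643, 3148, 5265, 2796, 3175 and 2378. In G it had 6113, 5534, 5906, 5006, 4750 and 3977. The lowest G sample, G6, lay above the highest A sample, A3, so that G and A did not overlap, while G overlapped with B through B3 and with C through C3. The mean of letter A was 2756 ± 412, that of B 3871 ± 1519, that of C 3401 ± 1006 and that of G 5214 ± 797.5 (SD, n = 6).

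The log2 fold change of Cdkn1a was 0.92 in G against A (SE 0.18), 0.49 in G against B and 0.65 in G against C. G was higher in 6, 5 and 6 of the 6 same-number pairs. B against A gave 0.43 and C against A 0.27, each higher in 5 of 6 numbers, and C against B gave -0.16. Ordered by mean, A was lowest, then C, B and G, and the neighbours A and C, C and B, and B and G each overlapped in range. In the pairs other than G against A, limma gave Cdkn1a adjusted p-values of at least 0.9998. With the sample number as a block, the call changed in G against C (adjusted p = 0.0382) and not in G against B (adjusted p = 0.179). Its unadjusted p-values were 0.0140 against B and 0.00173 against C, and 0.0280 in B against A. These contrasts share the G or the A samples with the contrast that singled out Cdkn1a, and they are not independent of it.

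Of the 10 genes, only Cdkn1a had G and A values that did not overlap, a property of 0.466% of all genes, and the choice of Cdkn1a used this contrast. None of the 10 had values without overlap in the other pairs of letters, where 0.111% of all genes did in B against A, 0.108% in C against A, 0.088% in C against B, 0.176% in G against B and 0.271% in G against C. In G against A the log2 fold changes of the other genes were 0.23 for Gadd45a, 0.21 for Trp53inp1, 0.12 for Phlda3, 0.08 for Sesn2 and 0.07 for Gdf15. They were -0.04 for Bax, -0.05 for Ccng1, -0.08 for Trp53 and -0.11 for Mdm2. Their SE lay between 0.07 and 0.19, and each change was less than 2 times its SE. That fit leaves out the sample number, so these SE include the differences between numbers. Of the 6 same-number pairs, G was above A in 6 for Gadd45a, 5 for Phlda3 and Sesn2 and 4 for Trp53inp1. It was above A in 3 for Gdf15 and Trp53 and in 2 for Bax, Ccng1 and Mdm2. Over all 6 pairs of letters, the changes of the 9 other genes lay between -0.13 and 0.23. Leaving aside G against A, the limma fit was also read at an unadjusted p under 0.05. It then held 1 of the 10 genes in B against A, in G against B and in G against C, Cdkn1a each time. It held 0 in C against A and in C against B. Of all 30667 genes, it held 1099 in B against A, 1125 in G against B and 1235 in G against C. In C against A it held 913 and in C against B 558. The red blood cell markers moved the other way: their sum over 4 genes was 119603 to 296779 in G and 148320 to 1018226 in A, and its part in the Cdkn1a values was not tested.

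**Figure D2:**
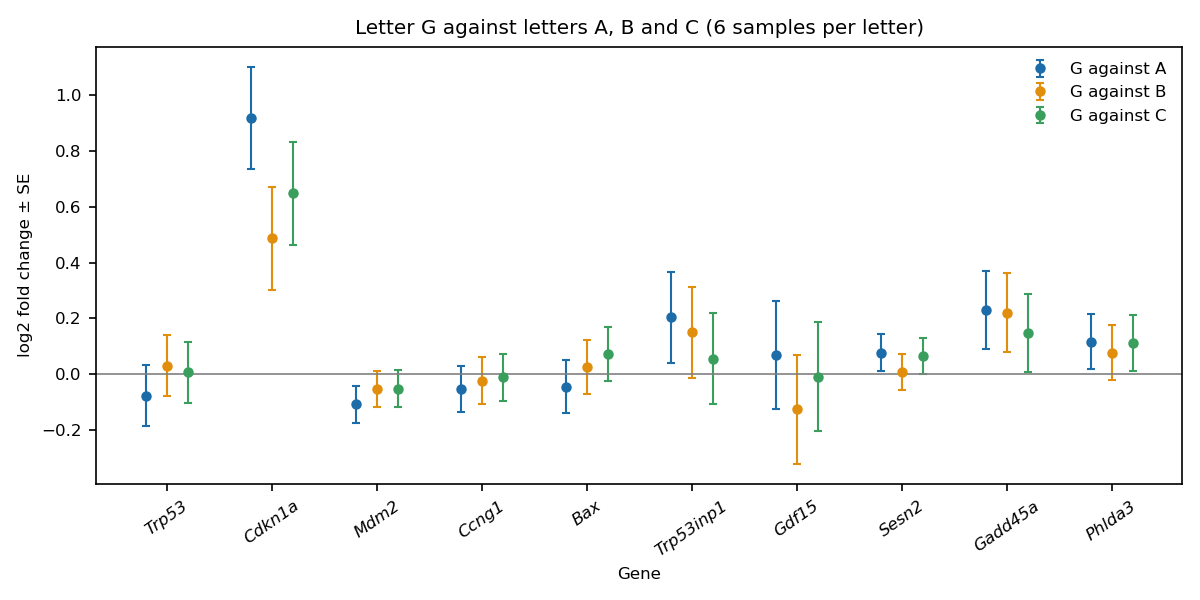
The log2 fold change (vertical axis, with SE bars) of each of the 10 genes (horizontal axis) in letter G against A, B and C. The fit was to all 24 samples, without the sample number. Cdkn1a lies at 0.92, 0.49 and 0.65, and the other 9 genes lie between -0.13 and 0.23.

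By number, Cdkn1a was highest in number 3 in A, B and C, and in G the number 3 sample came after G1. Number 3 exceeded the mean of the other 5 numbers by a log2 difference of 0.63 (SE 0.10, limma adjusted p = 0.00118). Number 6 was lower by -0.37 (adjusted p = 0.0328), and C6 and G6 were the lowest samples of their letters. Ccng1 and Bax, described below, were also lower in number 6. B cell markers were higher there in 4 of 4 genes, with sums of 3352 to 4001 against 1637 to 3452 in the other numbers, and T and NK cell markers in 3 of 4. The part of these cells in the number 6 values was not tested. The test across numbers gave an adjusted p of 0.00120, and it passed whichever of the 24 samples was left out (highest adjusted p 0.00753). Without the 4 samples numbered 3 it still passed, at 0.0402. Without the letter in the model the adjusted p was 0.174.

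In number 3, 3 of the 10 genes were higher (Cdkn1a, Gadd45a and Trp53inp1) and 1 was lower (Gdf15), where 2.89% of all genes were higher and 2.09% lower. The sum of the 4 macrophage markers was highest in number 3, at 29427 to 38672 there and 12403 to 24279 in the other numbers, with no overlap. Of these 4 markers, 2 passed as higher in number 3, and Marco was at 0 in some samples. In number 2, 2 of the 4 passed as higher as well. The median log2 difference of the markers was 0.14 in number 2 and 0.15 in number 3, so the separation held for the sum only. The part of macrophages in the number 3 values was not tested.

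Gadd45a, a stress sensor that binds PCNA and kinases of the p38 pathway, had the smallest p-value of the 10 genes across numbers (limma adjusted p = 0.000252). Number 3 had 2653, 3261, 3353 and 2891 counts in the letters A, B, C and G. Number 1 had 2642, 2835, 2752 and 3487, and number 2 had 1907, 1838, 2261 and 2030 in the same order. Number 2 therefore overlapped with neither number 1 nor number 3. In numbers 4, 5 and 6 the values ran from 2036 to 2872, with the G sample highest each time. Numbers 1 and 3 were higher than the other numbers by log2 differences of 0.30 and 0.36 (SE 0.07 each, adjusted p = 0.00743 and 0.00359), and number 2 was lower by -0.35 (adjusted p = 0.00106). As background, 5.62% of all genes were higher in number 1 and 10.3% lower in number 2. In numbers 4, 5 and 6, where Gadd45a did not pass, 2.02%, 1.09% and 4.02% of all genes were lower and 2.72%, 0.88% and 4.11% higher. Gadd45a passed whichever sample was left out. Red blood cell markers were lower in number 1 in 4 of 4 genes (median log2 difference -0.96) and T and NK cell markers in 2 of 4, and their part in the number 1 values was not tested.

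The question asked of these genes was whether Cdkn1a moved with the other targets. Of the 9 others, only Gadd45a passed. Its Pearson r with Cdkn1a over the 24 samples was 0.69 and its Spearman rho 0.62 on the log2 scale (permutation tests with 100000 resamples, p = 0.000220 and 0.00141, adjusted over the 9 pairs 0.00198 and 0.0127). Of all other genes, 0.355% had an r with Cdkn1a at least as high. With 1 sample left out, r lay between 0.64 and 0.80 and passed each time. Without B3 and G1, the samples farthest from the median of Cdkn1a, r was 0.56 with an adjusted p of 0.0634, so that passing the threshold rested on those samples. Because samples of a number are not independent, r was also taken on deviations from the letter and number means. It was then 0.63, with a permutation p of 0.0596 when values were exchanged within numbers, and 0.537 after adjustment, and did not pass.

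Trp53inp1 came next, with an r of 0.46 and a rho of 0.31 (permutation adjusted p = 0.110 and 0.409), and 3.39% of all genes had an r at least as high. Mdm2 leaned the other way, with an r of -0.42 (permutation adjusted p = 0.131) and a rho of -0.56, which passed at 0.0239. On deviations from letter and number means, the r of Mdm2 with Cdkn1a was 0.034 and that of Trp53inp1 0.18. Bax, Ccng1 and Phlda3 had r between 0.15 and 0.16, and Sesn2, Trp53 and Gdf15 had r of -0.11, -0.15 and -0.26, with permutation adjusted p-values between 0.472 and 0.608. The median r of the 9 genes was 0.15, against -0.007 for all genes. A p that missed the threshold does not show that these genes moved apart from Cdkn1a.

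**Figure D3:**
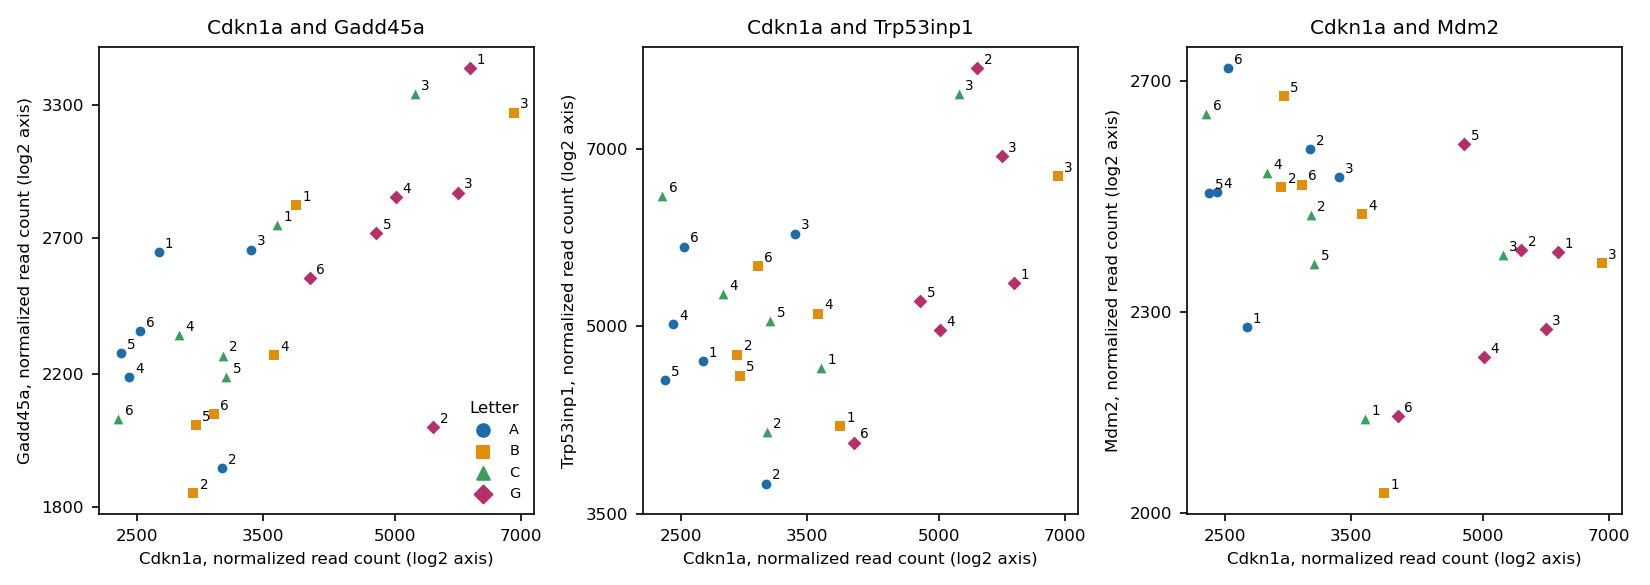
Normalized read counts of Cdkn1a (horizontal axis, log2 scale) against those of Gadd45a, Trp53inp1 and Mdm2 (vertical axes, log2 scale) in the 24 samples, with letters by colour and shape and the sample number beside each point. Gadd45a was higher where Cdkn1a was higher (r of 0.69), and the samples numbered 2 lie low in Gadd45a.

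**Figure D4:**
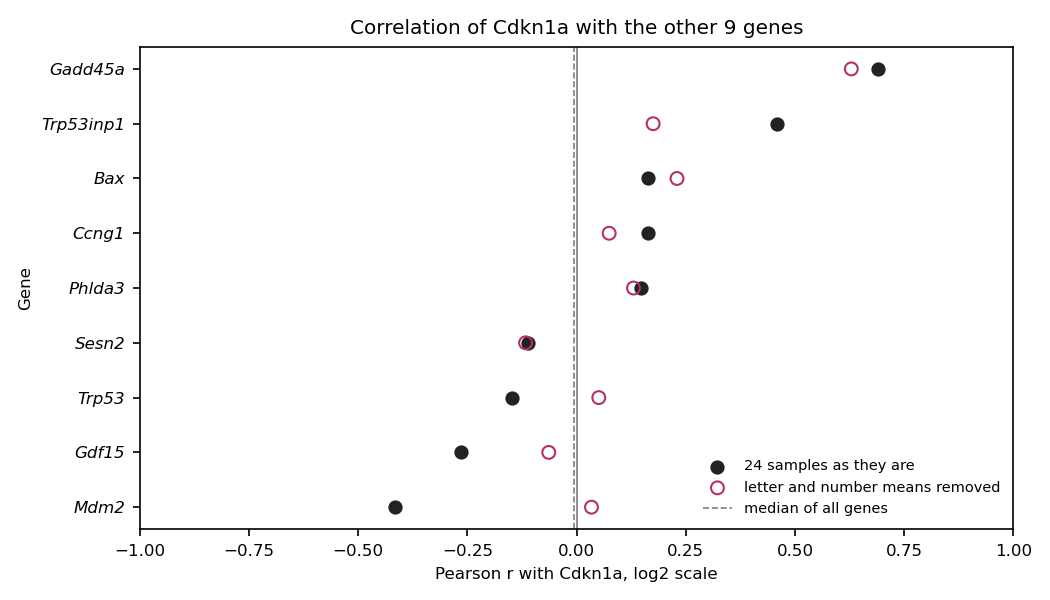
Pearson r of Cdkn1a with each of the other 9 genes (horizontal axis) over 24 samples, as filled points for the log2 values and open points after letter and number means were removed. Gadd45a stands at 0.69 and 0.63, and the other open points lie between -0.12 and 0.23.

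Among all 45 pairs of the 10 genes, 4 passed after adjustment over the 45 (permutation tests), 1 positive and 3 negative, and 0 passed on deviations from letter and number means. The positive pair was Cdkn1a and Gadd45a. The negative pairs were Trp53 and Trp53inp1 (r of -0.68, rho of -0.70, permutation p = 0.000150 and 0.000330, adjusted 0.00675 and 0.0148), Mdm2 and Phlda3 (r of -0.60, rho of -0.55, permutation p = 0.00188 and 0.00572, adjusted 0.0282 and 0.0429) and Ccng1 and Sesn2 (r of -0.58, rho of -0.58, permutation p = 0.00336 and 0.00395, adjusted 0.0378 and 0.0429). Leaving out the 2 samples farthest in the first gene of each pair gave r of -0.60, -0.41 and -0.54. For Trp53 and Trp53inp1, r was -0.65 without A2 and -0.84 on deviations from letter and number means (permutation p = 0.00835, adjusted 0.188). G2 was the lowest of the G samples in Trp53 and the highest in Trp53inp1, and G6 was the reverse. The r of this pair was not taken without G2 and G6. Of the 45 r values, 19 were positive and 26 negative.

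Ccng1 encodes cyclin G1, which recruits a phosphatase to Mdm2. Its values were 3940 to 4385 in number 1 and 3972 to 4267 in number 6, and 4844 to 5227 in number 3, above every sample of numbers 1 and 6. Numbers 1 and 6 were lower by log2 differences of -0.18 and -0.17 (SE 0.05 each, limma adjusted p = 0.0301 and 0.0459), and 6.25% and 4.02% of all genes were lower there. The test across numbers gave an adjusted p of 0.00575.

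Bax encodes the pore-forming protein of the mitochondrial death pathway. It had 2804, 2545, 2524 and 2539 counts in number 2 of A, B, C and G, which was the highest sample in A, B and C. In number 6 it had 2205, 1739, 1857 and 2096, with no overlap with number 2. The log2 difference was 0.24 in number 2 and -0.24 in number 6 (SE 0.06 each, limma adjusted p = 0.00486 and 0.0143). Across numbers the adjusted p was 0.00364. Cdkn1a had a log2 difference of -0.03 in number 2, where the mean of Bax was highest.

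Phlda3 encodes a small pleckstrin homology protein that competes with the survival kinase Akt for membrane lipids. Number 1 had 4052, 4563, 4549 and 4532 counts in A, B, C and G, the highest of A, B and C and just under G4 (4549) in G. Number 3 had 3049 to 3474, and was lower than number 1 in each letter, with no overlap. Number 1 exceeded the other numbers by a log2 difference of 0.30 (SE 0.06, limma adjusted p = 0.00250), and number 3 lay at -0.21 (adjusted p = 0.0542). The adjusted p across numbers was 0.00438. Phlda3 and Gadd45a were thus both high in number 1, while in number 3 Gadd45a was high and Phlda3 was at its lowest mean, 3299.

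Trp53inp1, whose product binds p53 and promotes cell death and autophagy, had 5964, 6654, 7780 and 6910 counts in A3, B3, C3 and G3, the first 3 of which were the highest of their letters. The highest value of all, 8172, was in G2, although A2, B2 and C2 had 3709, 4739 and 4090. G6 had 4010, while A6, B6 and C6 had 5608 to 6409. Number 3 was higher than the other numbers by a log2 difference of 0.45 (SE 0.13, limma adjusted p = 0.0497), and the test across numbers did not pass (adjusted p = 0.118). It passed without G2 or without G6, and without both its adjusted p was 7.26e-05, a fit chosen after the values were seen. G2 and G6 also departed from their numbers in Trp53, where G2 was the lowest and G6, at 2873, the highest of the G samples, and Mdm2 was lowest of the G samples in G6, at 2139. Across the 21922 genes whose mean was 10 or more, G2 and G6 still correlated best with samples of their own number.

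Gdf15 encodes a secreted stress cytokine of the TGF-beta family. It had 570, 656, 510 and 531 counts in number 3 and 917, 1281, 940 and 896 in number 4, with no overlap. Number 3 was lower by a log2 difference of -0.52 (SE 0.13, limma adjusted p = 0.0245) and number 4 higher by 0.46 (adjusted p = 0.0486), as were 2.09% and 2.72% of all genes. In number 4, red blood cell markers were higher in 4 of 4 genes and skeletal muscle markers in 2 of 4, and their part in the Gdf15 values was not tested. The adjusted p across numbers was 0.0148, and without the 4 samples numbered 3 it was 0.204. Gdf15 was thus lowest in the number in which Cdkn1a, Gadd45a and Trp53inp1 were highest.

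Sesn2 encodes sestrin 2, a leucine-responsive brake on mTORC1. It ranged from 2781 in C4 to 3604 in G6, with an adjusted p of 0.285 across numbers (limma), and it passed in 0 of the 24 fits with a sample removed. No number differed from the others (lowest adjusted p 0.244). In G the samples G4 and G6, at 3546 and 3604, were above the other 4, which had 2881 to 3104.

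Other genes of the response were taken from lists written with earlier results known, and are given as counts. Of 35 other p53 targets, 20 passed across numbers (57.1%), where 31.5% of all genes passed, and 0 passed between any letters. In number 3, 2 of the 35 were higher and 3 lower, and their median log2 difference was -0.01. Their median r with Cdkn1a was -0.09, with 3 genes at 0.5 or above and 3 at -0.5 or below. Pidd1, which forms a death-signalling scaffold, had 871 to 1038 counts in number 2 and 563 to 947 elsewhere, and was higher in numbers 2 and 3 (limma adjusted p = 0.000522 and 0.0276). Ddb2, a sensor of bulky DNA lesions, had 418 to 605 counts in number 6 and 248 to 453 elsewhere (adjusted p = 0.000813). Ckap2, a spindle protein, had 104 to 419 counts in number 2 and 32.1 to 240 elsewhere (adjusted p = 0.000270).

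Of 20 genes that sense DNA damage or control p53, 11 passed across numbers, against 31.5% of all genes, and 0 between letters. In number 2, 7 were higher and 3 lower, against 11.5% and 10.3% of all genes. H2afx, the histone variant phosphorylated at DNA breaks, had 1226 to 2114 counts in number 2 and 810 to 1312 elsewhere (limma adjusted p = 3.57e-05). Parp1, which builds poly(ADP-ribose) at breaks, had 6317 to 10890 in number 2 and 4823 to 5848 elsewhere, with no overlap (adjusted p = 4.72e-05). Hipk2, a kinase that phosphorylates p53, was lower in number 2, with 6226 to 7774 counts (adjusted p = 0.000286). As for Trp53, these number 2 values stood beside the higher proliferation genes there.

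Of 19 cyclin-dependent kinase inhibitors, cyclins, kinases and their targets, 12 passed across numbers, where 31.5% of all genes did, and 11 were higher and 2 lower in number 2, against 11.5% and 10.3% of all genes. None had an r with Cdkn1a of 0.5 or above. Ccnd2, cyclin D2, had 8283 to 9468 counts in number 1 and 3480 to 3889 in number 6, where it overlapped with no other number (limma adjusted p = 3.82e-07 and 1.03e-06). Cdk6, its partner kinase, had 2666 to 3226 in number 1 and 1701 to 2656 elsewhere (adjusted p = 1.80e-05). Cdk1, the mitotic kinase, had 528 to 2105 in number 2 and 205 to 875 elsewhere (adjusted p = 3.59e-05).

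Of 14 relatives of the 10 genes, 11 passed across numbers, a test that 31.5% of all genes passed. Gadd45b, a paralog of Gadd45a, had 2566 to 4925 counts in number 2, where it was lower (limma adjusted p = 0.00143), and 5550 to 6224 in number 4, where it was higher (adjusted p = 0.00576). It shared the low values in number 2 with Gadd45a. Number 1 lay at a log2 difference of -0.31 for Gadd45b, which did not pass (limma adjusted p = 0.0654), and at 0.30 for Gadd45a. The r of Gadd45b with Cdkn1a was 0.43, and 0.66 on deviations from letter and number means, given with no test. Those of Gadd45a were 0.69 and 0.63. Trp53inp2, the paralog of Trp53inp1, had 17682 to 20489 counts in number 1, above all other samples (adjusted p = 2.94e-06). Bcl2, which restrains Bax, had 1529 to 1835 in number 2 and 1693 to 2434 elsewhere, and was lower there (adjusted p = 0.000334).

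Gdf15 and Sesn2 are also targets of ATF4, and of 14 ATF4 response genes 7 passed across numbers, against 31.5% of all genes. Ddit3, a transcription factor of that response, had 2062 to 2776 counts in number 4, where Gdf15 was also highest, and 1338 to 2151 elsewhere (limma adjusted p = 2.44e-05). Nupr1, a stress-induced chromatin protein, was lower in numbers 5 and 6 (adjusted p = 0.0220 and 0.00740) and Vldlr, a lipoprotein receptor, in number 2 (adjusted p = 0.000216). The median log2 difference of this list was 0.15 in number 4 and 0.06 in number 3.

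Glucocorticoid-responsive genes had the highest median r with Cdkn1a of the 7 lists, 0.54 over 15 genes, against -0.007 for all genes. On deviations from letter and number means the median was 0.39, against 0.017 for all genes. It was not particular to this list there: the median was 0.35 for proliferation genes, 0.35 for T and NK cell markers and 0.47 for neutrophil markers. The remaining lists and marker sets lay between -0.20 and 0.18. Of the 15, 8 had an r of at least 0.5, which 2.42% of all genes reached, and 10 passed across numbers, against 31.5% of all genes. In number 3, 4 were higher and 0 lower, where 2.89% and 2.09% of all genes were, with a median log2 difference of 0.41. Fkbp5, a chaperone of the glucocorticoid receptor, had 3079 to 13556 counts in number 3 and 937 to 3831 elsewhere (limma adjusted p = 0.00127). Klf9, a transcription factor, had 21640 to 31811 in number 3 and 7777 to 29797 elsewhere (adjusted p = 0.00288), with an r with Cdkn1a of 0.74. Tsc22d3, an anti-inflammatory mediator of glucocorticoids, had an r of 0.76. Both were lower in number 2 (adjusted p = 0.000388 and 0.00332). In G against A the list's median log2 fold change was 0.65, against -0.005 for all genes. There 1 of the 15 genes passed, as did 0.00652% of all genes. That contrast singled out Cdkn1a and the list was written with earlier results known, so these values are a description.

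The genes most like Cdkn1a were ranked by Pearson r over the 24 samples among 15913 other genes with a mean of at least 100. The highest were Sema7a (0.88), A930018P22Rik (0.88), Gramd2 (0.86), Osbpl11 (0.86) and Bcl2l11 (0.85), and Gadd45a ranked 103. Sema7a, a membrane-anchored semaphorin, averaged 4954, 7216, 6344 and 8397 counts in the letters A, B, C and G, the same order as Cdkn1a. Bcl2l11, which encodes the death protein Bim, averaged 2253, 2798, 2671 and 3628 in that order, and its number 3 lay 0.77 above the other numbers on the log2 scale. The lowest were Hic1 (-0.91), Bambi (-0.90) and Snai1 (-0.89), all of them regulators of transcription or of TGF-beta signalling. Hic1, a transcriptional repressor, averaged 1729, 1441, 1480 and 1097 in that order. On deviations from letter and number means its r with Cdkn1a was -0.81, and those of Sema7a and Bcl2l11 were 0.72 and 0.68. These genes were ranked on the same samples, so the r values describe them and carry no test.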

How the data were processed

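The authors deposited a single table of a signal per gene and sample. Judged by their size and decimals, the values are read counts after a normalization, and rows carry gene symbols. The submitters' processing notes name STAR, an aligner, and GRCm38, a mouse genome build, with no role for either. The counting tool, strand setting, normalization and annotation are not given in the sources used here. Sums per sample were nearly equal, so depth is unknown and no counting interval is given.

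Genes with a mean of at least 0.5 were kept, which all 30667 passed. limma-trend (limma 3.58.1, R 4.3.3) was fitted to log2(value + 1) of all 24 samples: 4 letter means with 6 pairwise contrasts, and letter plus number with an F test across the 6 numbers and, chosen after the data were seen, each number against the mean of the other 5. P-values are two-sided and Benjamini-Hochberg adjusted within each test over the whole table, and 0.05 is the threshold. The fits were tested on simulated data. Correlations used two-sided permutation tests with 100000 resamples. Alternatives were other pseudocounts, filters, scalings, weights, the number as a block and leaving out samples.

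The 10 genes, the gene lists and the tests were chosen with earlier results of these data known. The rule for named genes was: the 10 genes, the 3 genes per list with the smallest p across numbers, and the 5 highest and 3 lowest in r with Cdkn1a among genes with a mean of at least 100. Promoter sequences are from RefSeq (GRCr8), matched by rat symbol.

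Equal numbers were checked as pairs by the correlation of deviations from letter means over 21922 genes. The 6 values ran from 0.17 to 0.59 for A with B and from 0.13 to 0.60 for B with C, each over 0.1. These letters thus looked paired by number on the data alone, as no label states it. The main letter fit did not use this pairing, and only the alternative with the number as a block did. Each of the other 4 pairs of letters had at least 1 value of 0.1 or less, which does not show that they were unpaired. A with C and B with G had 5 of 6 values over 0.1, and G with A and with C had 4. Of 12 samples, those that correlated best with their own number were 10 in A with C, B with C and B with G. They were 8 in A with B and C with G, and 6 in A with G.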

Additional observations from a re-analysis of the deposited data

Results flagged for a closer look

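Within each letter, the highest and the lowest sample were set against their nearest neighbour by Dixon's test on the share of the range that the gap takes up. The gap passed the critical value in 3 of 40 groups of 6 samples, and chance gives about 1 in 20 such groups. Trp53 was 3897 in A2, above the next A sample at 2642. Cdkn1a was 6874 in B3, above the next B sample at 3830. Bax was 1739 in B6, below the next B sample at 2243. Each of these samples lay on the same side as most samples of its number: number 2 was highest for Trp53 in A, B and C, number 3 highest for Cdkn1a in A, B and C, and number 6 lowest for Bax in B and C.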

How the results depend on the processing

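The count of the 10 genes passing across numbers stayed within 1.5 times of 7 in every fit run, from 5 without number 3 to 9 with sample weights, and from 6 to 9 when 1 sample was left out. Between letters, sample weights gave 3 genes in G against B, against 1. When only the 12 samples compared were fitted, 5 genes passed in G against A, 1 of the 10 among them, and 1 in G against C. A fit of this kind to G and A singled out Cdkn1a. Passes of the 10 genes in G against A, here and below, therefore follow from that choice and carry no support. With the replicate number as a block, 391 genes passed in G against A and 11 in G against C, each with 1 of the 10, Cdkn1a (adjusted p of 0.0382 in G against C), and 2 in G against B; 20 of the 24 samples correlated best with their own number, and the block changed no other count. Leaving out 1 sample moved the counts to 1 to 4 genes in G against A (0 to 1 of the 10), 1 to 2 in G against B and 1 to 2 in G against C.

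For Cdkn1a, the r with Gadd45a lost its call with letter and number means removed (the replicate block, 0.63), without B3 and G1 (0.56) and without number 3 (0.56). The fit without number 3 was not planned. Without number 2, which was planned, the r with Gadd45a was 0.84. With only letter means removed, it passed (0.72, permutation adjusted p = 0.00621), though that fit keeps the differences between numbers. The rho with Mdm2 passed (-0.56), and leaving out 1 sample moved r with Trp53inp1 between 0.39 and 0.55, passing without C6. Uncalled values changed sign under the replicate block for Trp53 (0.051) and Mdm2 (0.034), with letter means removed for Phlda3 (-0.073), without B3 and G1 for Sesn2 (0.018), without number 2 for Trp53 (0.032), and without number 3 for Trp53 (0.024), Ccng1 (-0.047), Gdf15 (0.022) and Sesn2 (0.12). The cause was not tested.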
